A study of Mus musculus with 6 samples.

Results

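The genes of heterotrimeric G proteins and of the regulators of G protein signaling (RGS) were examined by RNA-Seq in the hippocampus of Phf21bΔ4/Δ4 and Phf21b+/+ mice. Genes were taken by symbol (Gna, Gnb, and Gng subunits, and Rgs genes), which matched 46 rows of the expression table. Gng8, Rgs5, and Rgs14 were left out by name, which left 43 of the 14477 listed genes. These were 13 α, 4 β, and 9 γ subunits, 16 RGS proteins, and Rgs7bp, which encodes a protein that binds RGS proteins. Of the 3 genes left out, Gng8 was differentially expressed (log2 change -3.98, FDR = 0.016), and Rgs5 (0.84, FDR = 0.151) and Rgs14 (0.37, FDR = 0.521) were not.

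The Phf21bΔ4/Δ4 line carries a CRISPR/Cas9 deletion in exon 4 of Phf21b in the whole body, so that no cell type was targeted, and the Phf21b+/+ mice were wild type at this gene. PHF21B is a PHD finger protein of the nucleus. Hippocampi were taken from 3 animals of each genotype (Phf21bΔ4/Δ4 replicates 2, 3, and 6, Phf21b+/+ replicates 5, 7, and 8) at baseline, with no treatment. The study used young adult male and female littermates on a C57BL/6J background, and the age and sex of each of these mice were not given in the sources used here. Xist lay between 86.9 and 216 CPM in all 6 mice, and 0 of 4 Y-linked genes were listed.

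Between 20495605 and 24881257 reads per mouse lay on listed genes, so that 3 reads correspond to 0.127 to 0.143 CPM, the reads of a gene scaled to the effective size of its library. Phf21b itself was at 2.15, 3.57, and 3.87 CPM in the Phf21bΔ4/Δ4 mice and at 6.50, 5.23, and 6.47 CPM in the Phf21b+/+ mice. The genotypes did not overlap for Phf21b, whose count takes in exons outside the deletion, and the difference missed the threshold (log2 change -0.96, SE 0.26, FDR = 0.141). By other methods, the study reported less Phf21b transcript (qRT-PCR) and less PHF21B protein (immunoblot and immunostaining) in the hippocampus of this line. The markers of several brain regions and cell types also differed between the mice. The summed CPM of 11 medial habenula markers, a list chosen with earlier results of these data known, lay between 6.39 and 10.5 in the Phf21bΔ4/Δ4 mice and between 164 and 228 in the Phf21b+/+ mice, and 11 of 11 were differentially expressed. The 10 CA1 markers, a list also chosen with earlier results of these data known, summed to 1064 to 1180 CPM against 471 to 535. The 9 thalamus markers summed to 133 to 234 CPM against 409 to 679. The 10 markers of GABAergic interneurons summed to 909, 923, and 742 CPM in Phf21bΔ4/Δ4 mice and to 578, 560, and 515 CPM in Phf21b+/+ mice, 10 of 10 with positive changes and 7 without overlap, and of 8 CA2 and CA3 markers 7 had negative changes. Choroid plexus markers reached 15990 CPM in Phf21b+/+ replicate 7 and 1005 CPM in replicate 8, against 28.4 to 89.3 CPM in the other 4 mice. The part of these differences in the values below was not tested. Where markers are given beside a gene, they are a description with no test.

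A heterotrimeric G protein relays the signal of a G protein–coupled receptor. The active receptor lets the α subunit exchange GDP for GTP, and α and the βγ dimer then act on effectors such as adenylyl cyclases, phospholipase C-β, ion channels, and guanine nucleotide exchange factors. RGS proteins speed the hydrolysis of GTP by α and so end the signal. In hippocampal neurons, Gi/o and βγ carry the inhibition of release and excitability by many transmitters, Gq/11 carries muscarinic and metabotropic glutamate signals, and Gs raises cAMP, which leads to phosphorylation of CREB.

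None of the 43 genes was differentially expressed between the genotypes. The genotypes were compared by limma over the whole table, and a gene was called at a false discovery rate (FDR) under 0.1 and a fold change above 1.3. By this rule 0 of 43 genes were called, beside 1.22% of all listed genes (0.553% higher and 0.663% lower in Phf21bΔ4/Δ4 mice), and voom on the reads also called 0. The lowest FDR of the 43 was 0.134 for Gnal and the highest was 0.963 for Gnai2. At an unadjusted p under 0.05 stood 16 of the 43 (37.2%), 9 with higher and 7 with lower values in Phf21bΔ4/Δ4 mice, against 23.6% of all listed genes (11.6% higher and 12% lower). The genotypes did not overlap for 13 of the 43 (30.2%), 9 higher and 4 lower, against 31% of all listed genes (15% higher and 16% lower). The share without overlap was thus near that of the whole table. The median log2 change was 0.079 over the 43 genes and -0.019 over all listed genes, and 24 of the 43 changes were positive. The 95% confidence interval of the change lay within 2-fold in both directions for 30 of the 43 genes and within 1.3-fold for 10, and for the other 13 the interval ran past 2-fold.

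**Figure D1:**
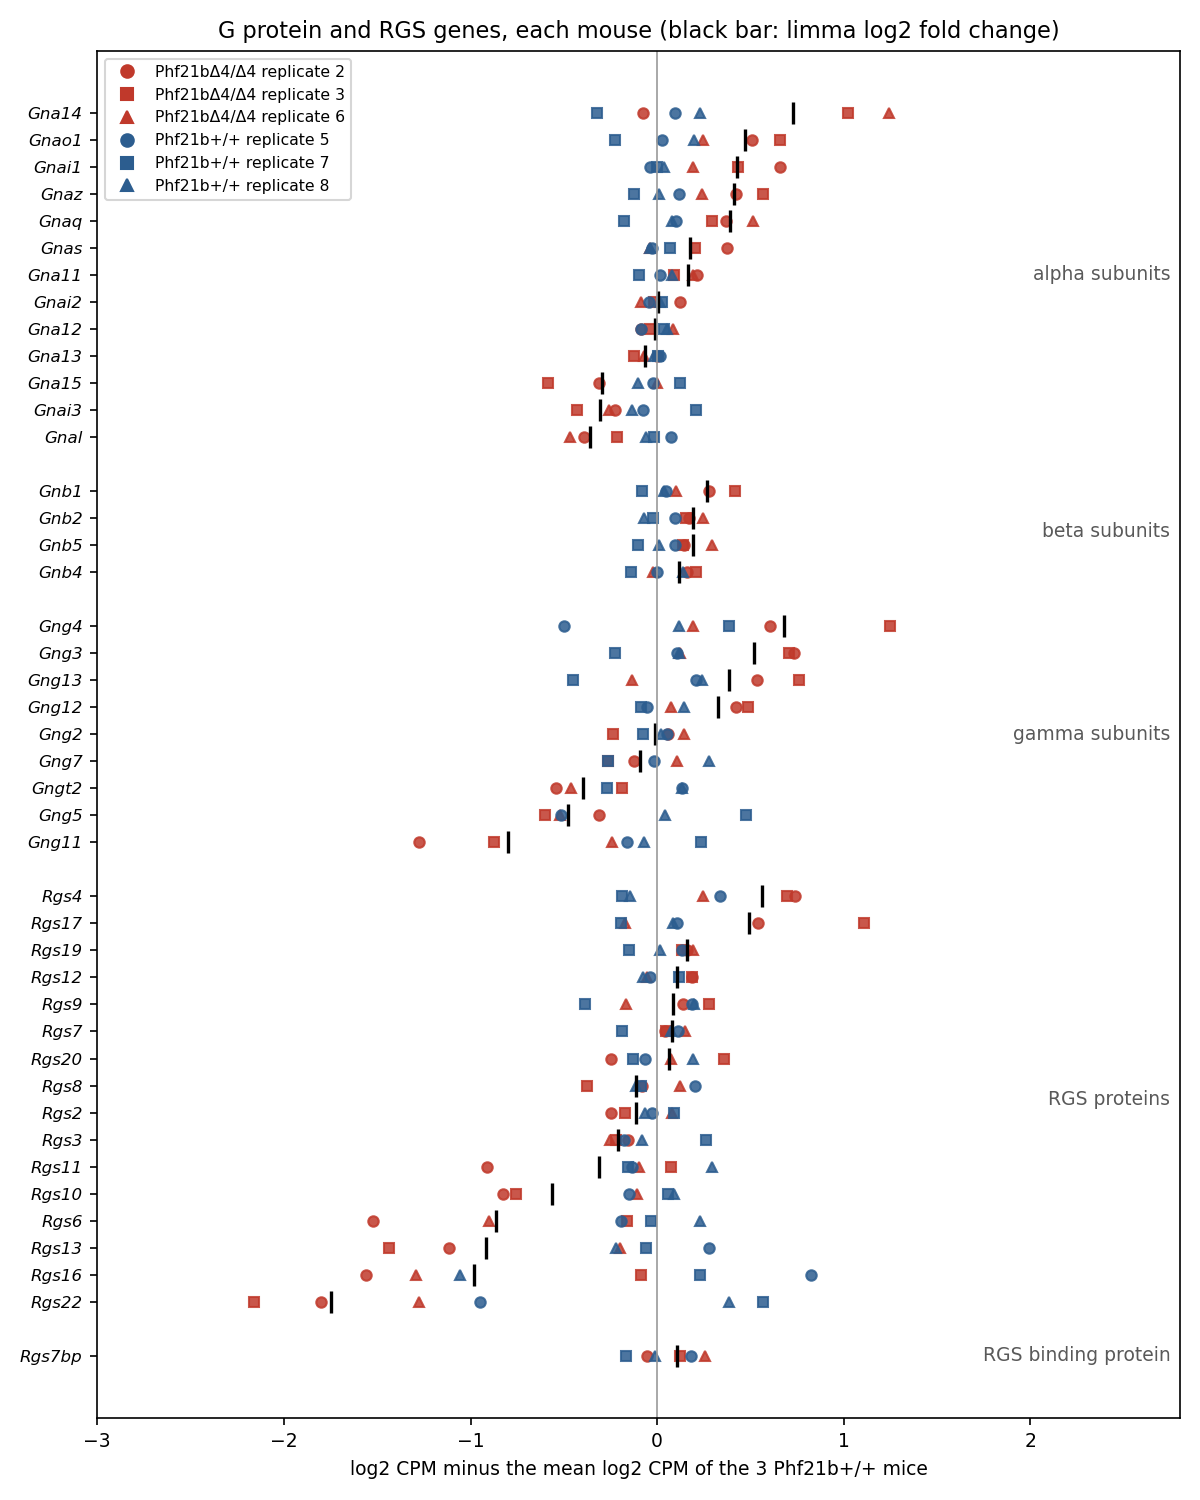
log2 CPM of each of the 43 genes in each mouse, shown as the difference from the mean of the 3 Phf21b+/+ mice (horizontal axis, log2 units), with Phf21bΔ4/Δ4 mice in red Phf21b+/+ mice in blue, and the log2 change from limma as a black bar. The genotypes are apart for 13 of the 43 genes, and Rgs22 lies farthest to the left, with a log2 change of -1.75.

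The count of calls depended on Phf21bΔ4/Δ4 replicate 6. Without it, 12 of the 43 genes were called (27.9%), against 19.5% of all listed genes. Higher in the remaining Phf21bΔ4/Δ4 mice were Gnao1, Gnai1, Gnaz, Gng3, Gng4, Gng12, Rgs4, and Rgs17, and lower were Gng11, Rgs10, Rgs13, and Rgs22. When each mouse was instead weighted by its estimated quality, 13 of the 43 were called (30.2%) against 24.5% of all listed genes. The weights were highest for Phf21b+/+ replicate 8 (4.63) and Phf21bΔ4/Δ4 replicate 2 (2.04) and lowest for Phf21bΔ4/Δ4 replicate 6 (0.343), so that this fit leaned on 2 mice. The sign of the change did not turn in any alternative for the 16 genes at an unadjusted p under 0.05, or for 32 of all 43. The 16 genes were picked by their p in the same mice, so a stable sign was likely beforehand and is no added support. Among the 3 Phf21bΔ4/Δ4 mice, replicate 6 lay nearest to the Phf21b+/+ mean for 21 of the 43 genes (48.8%) and for 52.0% of all listed genes. The dentate gyrus markers summed to 871 CPM in this mouse, to 346 and 316 CPM in replicates 2 and 3, and to 961 to 1100 CPM in the Phf21b+/+ mice.

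The Gi/o α subunits inhibit adenylyl cyclase and, through the βγ they release, open potassium channels. Higher mean values in Phf21bΔ4/Δ4 mice were measured for 4 of the 5, 3 of them without overlap, and Gnai3 was lower without overlap, while 15% of all listed genes were higher and 16% lower without overlap. Gnao1 encodes Gαo, the main α subunit of neurons. Its values were 401, 446, and 335 CPM in Phf21bΔ4/Δ4 replicates 2, 3, and 6, and 288, 242, and 324 CPM in Phf21b+/+ replicates 5, 7, and 8, the order used from here on. The lowest Phf21bΔ4/Δ4 mouse, replicate 6, was just above the highest Phf21b+/+ mouse. The means were 394 ± 55.9 and 285 ± 41.0 CPM (SD, n = 3 each), a log2 change of 0.47 (SE 0.15, FDR = 0.158). Gnao1 lies at chr8:93809966-93969388 on the plus strand (GRCm38, as are all positions given).

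Gnai1, which encodes Gαi1 (chr5:18265135-18360355, minus strand), was at 338, 289, and 245 CPM in Phf21bΔ4/Δ4 mice and at 209, 214, and 220 CPM in Phf21b+/+ mice. All Phf21bΔ4/Δ4 values were above the narrow range of the Phf21b+/+ values. The means were 291 ± 46.7 and 214 ± 5.48 CPM (log2 change 0.43, SE 0.12, FDR = 0.149). Gnaz encodes Gαz, a member of this class that pertussis toxin does not modify and that hydrolyzes GTP slowly (chr10:74967177-75016907, plus strand). Its values were 120, 133, and 106 CPM against 97.5, 82.5, and 90.4 CPM. Again replicate 6 was the nearest of the Phf21bΔ4/Δ4 mice to the Phf21b+/+ mice, and the groups stayed apart (log2 change 0.41, SE 0.11, FDR = 0.141). Gnai3 encodes Gαi3 and went the other way, with 56.5, 49.2, and 55.2 CPM against 62.8, 76.4, and 60.2 CPM (log2 change -0.30, FDR = 0.182). Gnai2 encodes Gαi2, which is also prominent in blood and microglial cells, and its means were 121 ± 9.12 and 121 ± 3.18 CPM. The 95% interval of its log2 change, -0.18 to 0.19, lay within 1.3-fold, and the sign turned under quantile normalization and on leaving out Phf21bΔ4/Δ4 replicate 2 or Phf21b+/+ replicate 5.

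The Gq/11 α subunits activate phospholipase C-β. Gnaq, which encodes Gαq (chr19:16132831-16387463, plus strand), was at 263, 250, and 291 CPM in Phf21bΔ4/Δ4 mice and at 219, 180, and 215 CPM in Phf21b+/+ mice. Every Phf21bΔ4/Δ4 mouse was above every Phf21b+/+ mouse, and replicate 6 was the highest. The means of Gnaq were 268 ± 20.8 and 205 ± 21.4 CPM, a log2 change of 0.39 (SE 0.11, FDR = 0.142). Its FDR was 0.027 with weighted mice and 0.096 without Phf21bΔ4/Δ4 replicate 6, but its fold change was then under 1.3, so that Gnaq was not called in any alternative. Gna11, whose product has the same effectors, was at 146, 134, and 144 CPM against 127, 118, and 133 CPM. These values did not overlap and the log2 change was small (0.17, FDR = 0.247). Gna14 and Gna15 encode members of the class found mainly outside neurons. Gna14 lay at 0.801, 1.71, and 2.001 CPM against 0.902, 0.675, and 0.989 CPM, and it was the only gene of the 43 with fewer than 2 mice of a genotype at 1 CPM or more. Gna15 lay between 1.19 and 1.94 CPM in all 6 mice, with overlap.

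The Gs class stimulates adenylyl cyclase. Gnas, which encodes Gαs, had the second highest level of the 43 genes per exon length in Phf21b+/+ mice, and its values overlapped, with 1422, 1262, and 1070 CPM against 1075, 1152, and 1069 CPM. The sign of its log2 change, 0.18 (FDR = 0.417), turned under quantile normalization, where it was -0.051. Its exons share 13.1% and 8.83% of their length with the opposite-strand genes Gm20721 and Nespas. Gnal, which encodes Gαolf, the form of Gαs of olfactory neurons and striatum, had 136, 154, and 130 CPM in Phf21bΔ4/Δ4 mice and 189, 177, and 172 CPM in Phf21b+/+ mice. All 3 Phf21bΔ4/Δ4 values were lower than all 3 Phf21b+/+ values. The log2 change of Gnal was -0.36 (FDR = 0.134), a fold of 1.28 that was just under the threshold, and after quantile normalization it was -0.49 and Gnal was called (FDR = 0.082), as 1 of the 43 genes beside 1.08% of all listed genes. The striatum markers summed to 160 to 206 CPM in Phf21bΔ4/Δ4 mice and 157 to 206 CPM in Phf21b+/+ mice. As given above, the thalamus, habenula, and dentate gyrus markers were lower, and the CA1 and interneuron markers were higher. The part of any of these in the values of Gnal was not tested. In tissue RNA, fewer cells of a type and less RNA per cell cannot be told apart.

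Gna12 and Gna13 encode the α subunits that act on guanine nucleotide exchange factors, and neither differed between the genotypes at an unadjusted p under 0.05. Gna12 was at 136, 140, and 153 CPM against 135, 147, and 149 CPM. Gna13 was at 113, 104, and 107 CPM against 114, 113, and 112 CPM. For both genes the 95% interval of the change was within 1.3-fold.

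**Figure D2:**
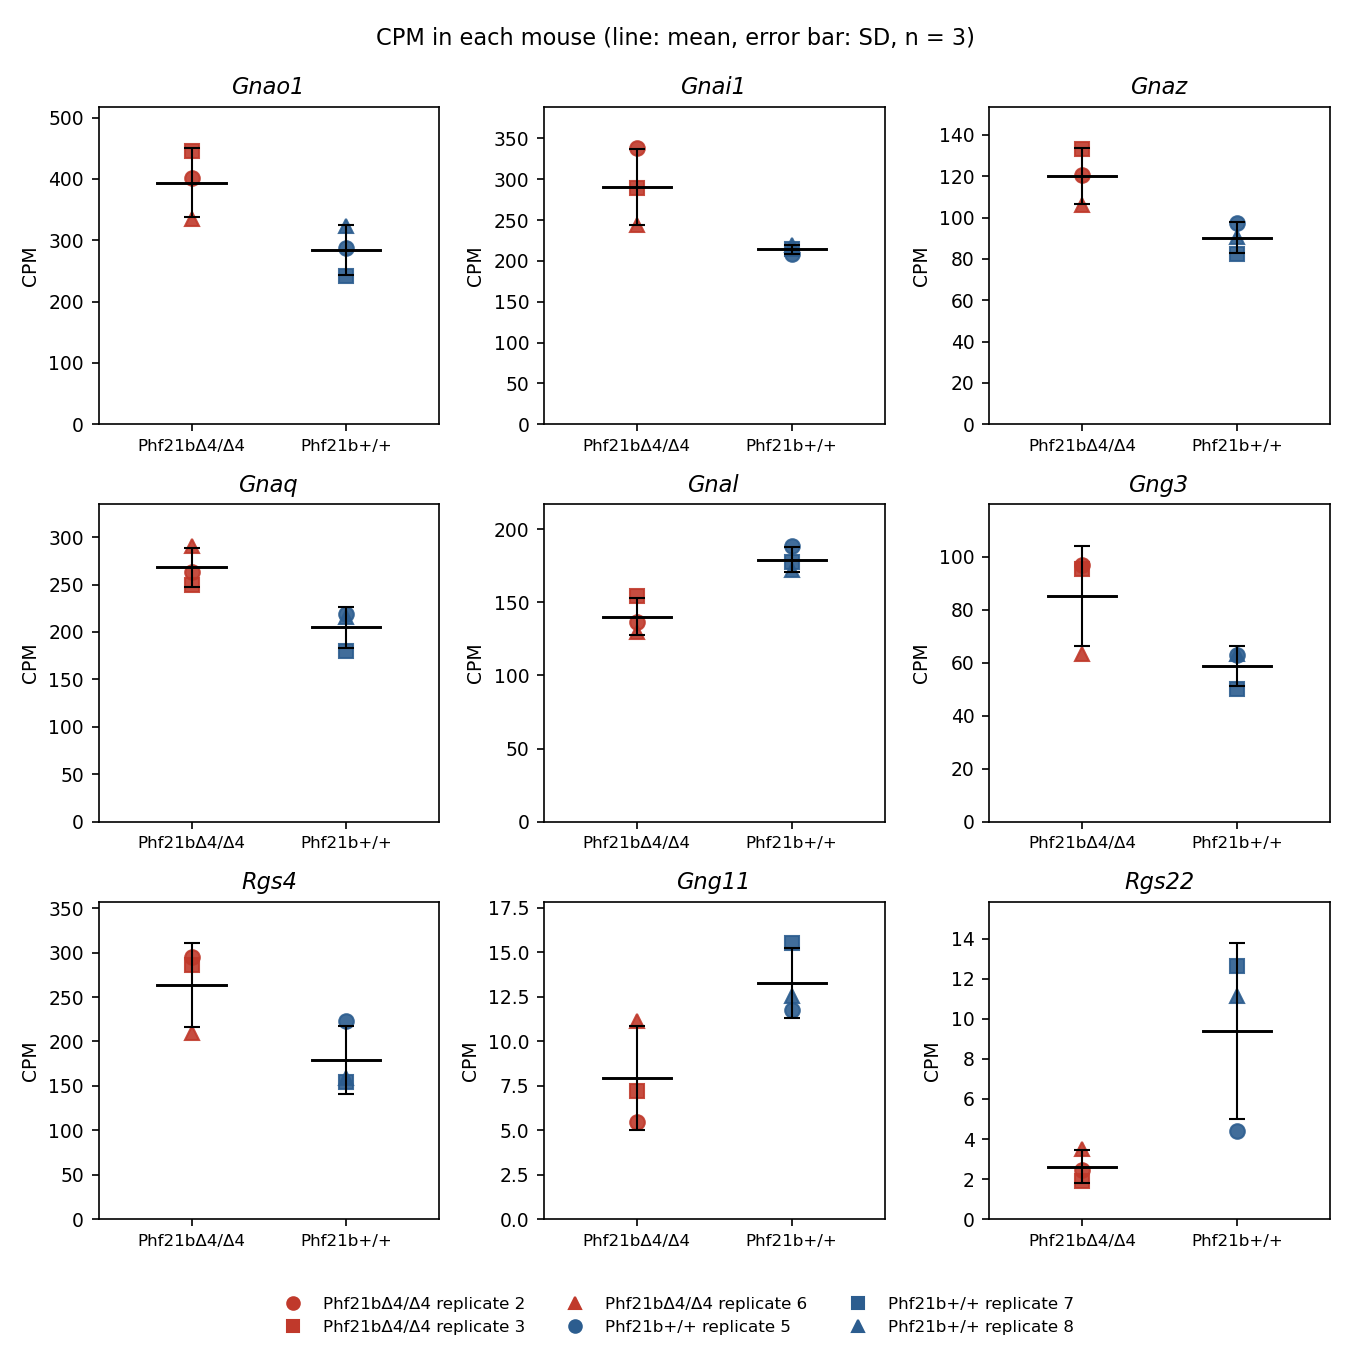
CPM of Gnao1, Gnai1, Gnaz, Gnaq, Gnal, Gng3, Rgs4, Gng11, and Rgs22 in each mouse (points; vertical axes from 0), with a horizontal line at the mean and error bars of 1 SD over the 3 mice of each genotype. Gnao1, Gnai1, Gnaz, Gnaq, and Gng3 are higher and Gnal, Gng11, and Rgs22 lower in every Phf21bΔ4/Δ4 mouse than in any Phf21b+/+ mouse, Rgs4 overlaps, and none of these differences reached an FDR under 0.1.

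The Gβ subunits form a stable dimer with γ, and all 4 listed β genes had higher mean values in Phf21bΔ4/Δ4 mice, 3 of them without overlap, as were 15% of all listed genes. Gnb1 encodes the main Gβ of the brain and was at 544, 599, and 482 CPM against 464, 424, and 460 CPM. Replicate 6 was again the nearest to the Phf21b+/+ mice, and the log2 change was 0.26 (SE 0.11, FDR = 0.199). Gnb2, a close relative of Gnb1, was at 200, 198, and 211 CPM against 190, 175, and 169 CPM. Gnb5 encodes Gβ5, which pairs with RGS proteins of the R7 class in place of a γ subunit, and had 124, 123, and 137 CPM against 120, 104, and 113 CPM. Both Gnb2 and Gnb5 had a log2 change of 0.19 (FDR = 0.196 and 0.225). Gnb4 overlapped, with 30.9, 31.9, and 27.1 CPM against 27.6, 25.1, and 30.4 CPM. The interval of the change was within 2-fold for all 4 genes and within 1.3-fold for 2 of them. After quantile normalization the log2 changes were 0.031 for Gnb1, 0.046 for Gnb2, 0.091 for Gnb5, and 0.16 for Gnb4.

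Since PHF21B is studied here together with CREB, the promoters of these genes were searched for the cAMP response element (CRE) to which CREB binds. The windows were those of RefSeq (GRCm38.p6), from 250 bases before to 50 bases after an annotated start, which need not be the first of the gene. There were 14533 windows for 11292 listed genes, so a gene with several had more chances to hold an element. Of the 43 genes, 34 had at least 1 window. The full element TGACGTCA was found in 0 of 34, against 3.50% of the 11292 listed genes with a window. The shorter core TGACG on either strand (read as CGTCA on the other) was found in 11 of 34 (32.4%), against 34.4% of listed genes, so the share was near that of all genes. Of the genes at an unadjusted p under 0.05, Gnb1, Gnb2, Gnai3, and Rgs4 held the core. These windows are shown 5′ to 3′ on the strand of the gene, with the core in capitals, as a description of letters and not of binding.
Gnb1, chr4:155491124-155491153, plus strand: aggagccgacacCGTCAggtcagagccaga
Gnb1, chr4:155491318-155491347, plus strand: gcccgtgcgcggTGACGcgacgtggggttt
Gnb2, chr5:137533293-137533322, minus strand: cggcgacggccgCGTCActggcgggcggga
Gnai3, chr3:108146103-108146125, minus strand: agctaggggagcTGACGgagaag
Rgs4, chr1:169747766-169747795, minus strand: gcatccctgatgCGTCAgttgtttcttcct
Rgs4, chr1:169747861-169747890, minus strand: aaatgcaaaactTGACGcgtaggtagaaac
The core lay in the promoters of genes with higher values (Gnb1, Gnb2, and Rgs4) and of Gnai3, whose values were lower.

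The γ subunits hold the dimer at the membrane, and the 9 listed γ genes showed no common direction, with 4 positive and 5 negative changes. Gng3, a γ subunit of neurons (chr19:8836933-8839194, minus strand), was at 97.0, 95.4, and 63.5 CPM in Phf21bΔ4/Δ4 mice and at 62.9, 49.97, and 63.3 CPM in Phf21b+/+ mice. Replicate 6 was level with the upper Phf21b+/+ mice, which it exceeded by a small margin, and replicates 2 and 3 were well above. The means of Gng3 were 85.3 ± 18.9 and 58.7 ± 7.57 CPM, a log2 change of 0.52 (SE 0.19, FDR = 0.176). Its exons share 24.2% of their length with Bscl2 on the opposite strand, and whether the counting used strand is not given in the sources used here.

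Gng11, a γ subunit expressed widely outside neurons and also in vessels (chr6:4003904-4008445, plus strand), was at 5.44, 7.19, and 11.1 CPM against 11.8, 15.5, and 12.5 CPM. All Phf21bΔ4/Δ4 values were lower, and replicate 6 came close to the lowest Phf21b+/+ value. The means were 7.92 ± 2.92 and 13.3 ± 1.96 CPM, a log2 change of -0.80 (SE 0.27, FDR = 0.167). The summed endothelial and pericyte markers were 157 to 199 CPM in Phf21bΔ4/Δ4 mice and 103 to 152 CPM in Phf21b+/+ mice, 8 of 8 with positive and 0 with negative changes. The part of these or other markers in the values of Gng11 was not tested.

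The other γ genes overlapped. Gng12, another γ subunit of many tissues, was at 85.02, 88.9, and 66.8 CPM against 61.0, 59.8, and 70.0 CPM (log2 change 0.33, FDR = 0.194). Gng2, which had the third highest level per exon length, lay between 303 and 394 CPM in all 6 mice with a log2 change of -0.012, and 20.4% of its exon length is shared with the opposite-strand gene Gm48283. Gng4 spread widely, with 29.9, 46.8, and 22.5 CPM against 13.9, 25.7, and 21.3 CPM. Its highest value was in Phf21bΔ4/Δ4 replicate 3. The neocortex markers also summed highest in this mouse, to 311 CPM against 98.3 to 143 CPM in the other 5 mice. Those 5 mice did not follow the same order in both. Phf21b+/+ replicate 5 had the lowest Gng4 value, 13.9 CPM, and the highest marker sum of the 5, 143 CPM. The part of the neocortex markers was not tested. Gng7, which pairs with Gαolf in striatum, had values of 72.8 to 94.3 CPM against 73.0 to 106 CPM. Gng13 had 23.96, 28.0, and 15.1 CPM against 19.1, 12.1, and 19.5 CPM, and 51.6% of its exon length is shared with Chtf18 on the opposite strand, so its values are uncertain. Gng5 lay between 3.001 and 6.33 CPM and Gngt2, a cone photoreceptor form also found in blood cells, between 1.603 and 2.56 CPM. Processed pseudogenes of Gng2, Gng5, and Gnb1 are annotated in GENCODE, and reads could be shared with them.

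Of the 16 RGS genes, 7 had positive and 9 negative changes. The 95% interval was within 2-fold for 8 of the 16, against 12 of 13 α, 4 of 4 β, and 5 of 9 γ genes. At an unadjusted p under 0.05 were 5 RGS genes, Rgs4 with higher and Rgs6, Rgs10, Rgs13, and Rgs22 with lower values in Phf21bΔ4/Δ4 mice. These were 31.2% of the 16, against 23.6% of all listed genes. The genotypes were apart for 1 of the 16, Rgs22, against 31% of all listed genes.

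Of the R4 class, small RGS proteins that act on Gi/o and Gq/11, Rgs4 had the highest level per exon length in Phf21b+/+ mice. Its values were 295, 286, and 209 CPM against 223, 155, and 159 CPM. Replicate 6 was lower than Phf21b+/+ replicate 5, so the genotypes overlapped, with means of 263 ± 47.2 and 179 ± 38.1 CPM (log2 change 0.56, SE 0.19, FDR = 0.167). The other 5 R4 genes had negative changes, of which that of Rgs8 turned without Phf21bΔ4/Δ4 replicate 3. Rgs2, an immediate early gene product that prefers Gαq, was at 39.1, 41.2, and 49.0 CPM against 45.6, 49.3, and 44.3 CPM (log2 change -0.11). Rgs16 varied widely within each genotype, with 3.29, 9.14, and 3.96 CPM against 17.2, 11.4, and 4.67 CPM, and a 95% interval from -2.32 to 0.36. Rgs13 was at 1.01, 0.810, and 1.91 CPM against 2.66, 2.11, and 1.89 CPM (log2 change -0.92, FDR = 0.203), and it overlapped through replicate 6. Rgs3 (13.4 to 14.4 against 14.1 to 19.2 CPM) and Rgs8 (80.2 to 113 against 96.2 to 120 CPM) also overlapped.

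The R7 class, Rgs6, Rgs7, Rgs9, and Rgs11, is stabilized by Gβ5 and brought to the membrane by the product of Rgs7bp. Rgs6 was at 10.7, 27.5, and 16.5 CPM against 27.0, 30.1, and 36.1 CPM. The value of Phf21bΔ4/Δ4 replicate 3 was inside the Phf21b+/+ range, and the log2 change was -0.86 (SE 0.33, FDR = 0.187). Rgs7 was even, with 78.6, 78.7, and 84.5 CPM against 82.6, 66.9, and 80.3 CPM. Rgs9, whose short form is known from photoreceptors and long form from striatum, lay between 8.82 and 13.96 CPM in all mice, and Rgs11 between 2.57 and 5.93 CPM. The partners of the class were Gnb5, given above, and Rgs7bp, with 303, 343, and 376 CPM against 358, 280, and 312 CPM (log2 change 0.11, FDR = 0.602).

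All 3 genes of the RZ class, which includes regulators of Gαz, had positive changes, and 0 of 3 were at an unadjusted p under 0.05. Rgs17 was at 106, 157, and 64.6 CPM against 78.3, 63.7, and 77.4 CPM. Its highest value was in replicate 3, as for Gng4, and replicate 6 was inside the Phf21b+/+ range. The log2 change was 0.49 (FDR = 0.339), and the 95% interval ran from -0.22 to 1.21. It was 0.18 without replicate 3, and 0.82 without replicate 6, where Rgs17 was called (FDR = 0.047). Rgs19 and Rgs20 had log2 changes of 0.16 and 0.063, and the sign for Rgs20 turned with weighted mice and on leaving out Phf21bΔ4/Δ4 replicate 3 or Phf21b+/+ replicate 7.

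Rgs10 and Rgs12 belong to the R12 class. Rgs10, a small RGS protein that is prominent in microglia and in dentate granule cells, was at 18.3, 19.3, and 30.2 CPM against 29.4, 33.9, and 34.7 CPM. Replicates 2 and 3 were lower than all Phf21b+/+ mice and replicate 6 was inside their range (log2 change -0.56, SE 0.20, FDR = 0.173). The 6 mice had the same low pair for the summed dentate gyrus markers given above, and the summed microglia markers lay between 450 and 500 CPM in Phf21bΔ4/Δ4 mice and 456 and 486 CPM in Phf21b+/+ mice. The part of the dentate gyrus markers was not tested. Rgs12 lay between 50.2 and 60.2 CPM in all mice.

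Rgs22, which encodes a large RGS protein known from testis and ciliated cells (chr15:36009479-36140400, minus strand), had the largest change of the 43 genes. Its values were 2.45, 1.91, and 3.52 CPM in Phf21bΔ4/Δ4 mice and 4.41, 12.6, and 11.1 CPM in Phf21b+/+ mice. The genotypes did not overlap, and Phf21b+/+ replicate 5 was near the Phf21bΔ4/Δ4 mice. The means of Rgs22 were 2.62 ± 0.824 and 9.39 ± 4.37 CPM, a log2 change of -1.75 (SE 0.44, FDR = 0.135). The 8 markers of motile cilia and ependyma summed to 45.5, 19.1, and 56.0 CPM against 62.9, 207, and 158 CPM, and the 10 choroid plexus markers to 89.3, 28.4, and 45.7 CPM against 36.7, 15990, and 1005 CPM. Rgs22 and the summed cilia markers put the 6 mice in the same order, from Phf21bΔ4/Δ4 replicate 3 at the lowest to Phf21b+/+ replicate 7 at the highest. Their part in the value of Rgs22 was not tested, and these pairings of genes with marker lists were chosen after the values were seen.

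**Figure D3:**
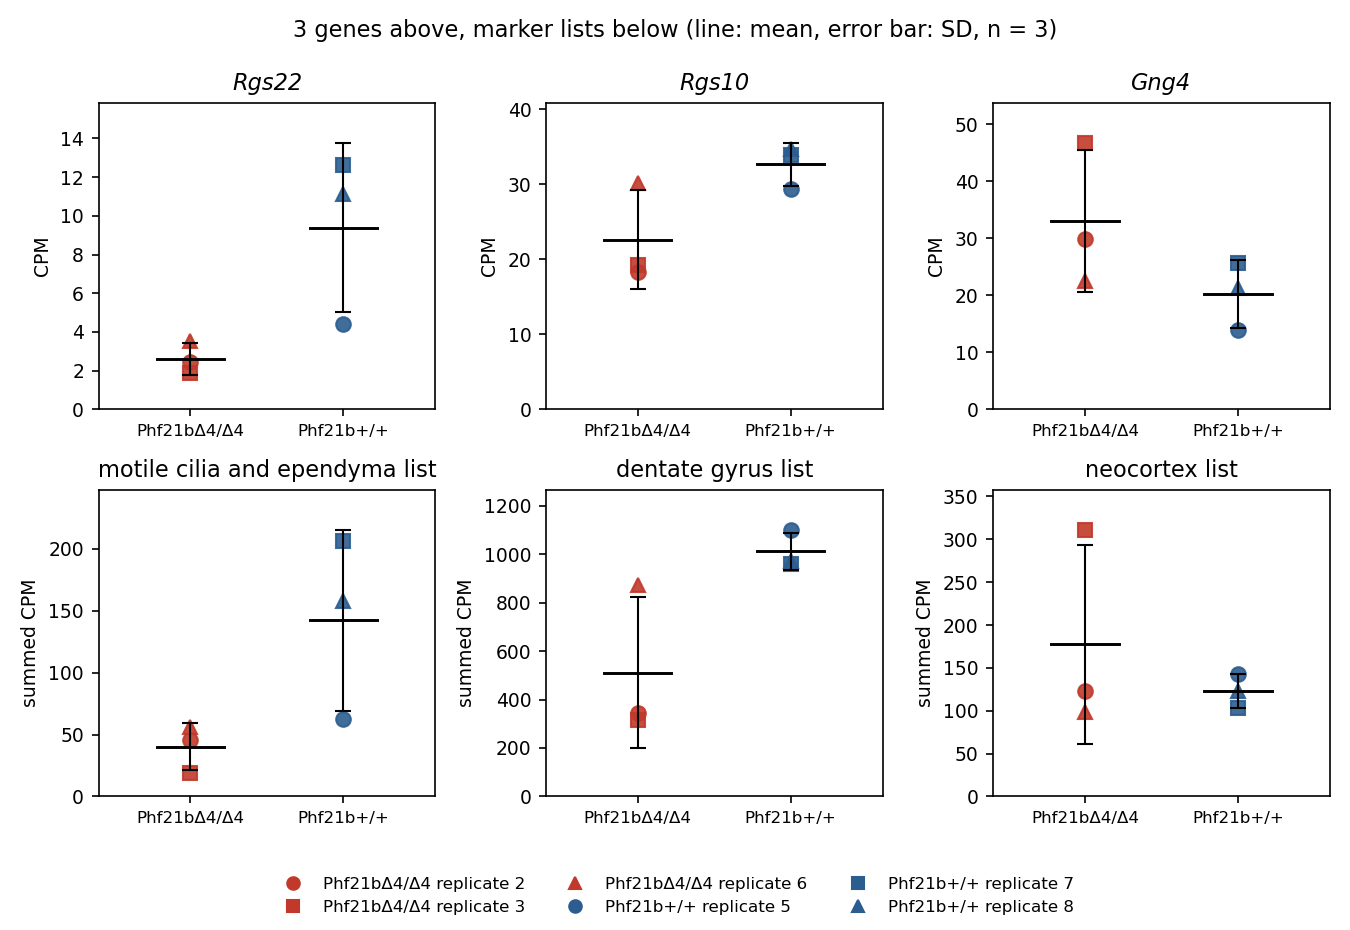
CPM of Rgs22, Rgs10, and Gng4 in each mouse (upper row) above the summed CPM of the markers of motile cilia and ependyma, dentate gyrus, and neocortex (lower row), by genotype, with a line at the mean and error bars of 1 SD over 3 mice. Rgs22 and the cilia markers are both highest in Phf21b+/+ replicates 7 and 8, and Rgs10 and the dentate gyrus markers are both lowest in Phf21bΔ4/Δ4 replicates 2 and 3. Gng4 and the neocortex markers are both highest in Phf21bΔ4/Δ4 replicate 3, but they put the other mice in different orders.

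Levels of different genes were compared as CPM per kb of exon length in Phf21b+/+ mice. Gnb1 had the highest level, 105 ± 5.16, followed by Gnas at 98.2 ± 4.16, Gng2 at 81.5 ± 3.83, and Gnai1 at 68.4 ± 1.75. The ranges of Gnb1 and Gnas over the 3 mice overlapped, whereas those of Gnas and Gng2 and of Gng2 and Gnai1 did not. Rgs4 followed at 57.8 ± 12.3, with a range that met those of Gnai1 above it and Gnb2 (52.4 ± 3.09) below it, and Rgs7bp was next at 44.8 ± 5.48. The lowest level was that of Gna14, 0.249 ± 0.047. Length is that of all annotated exons joined, so that a gene with long or rarely used exons has too low a value.

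**Figure D4:**
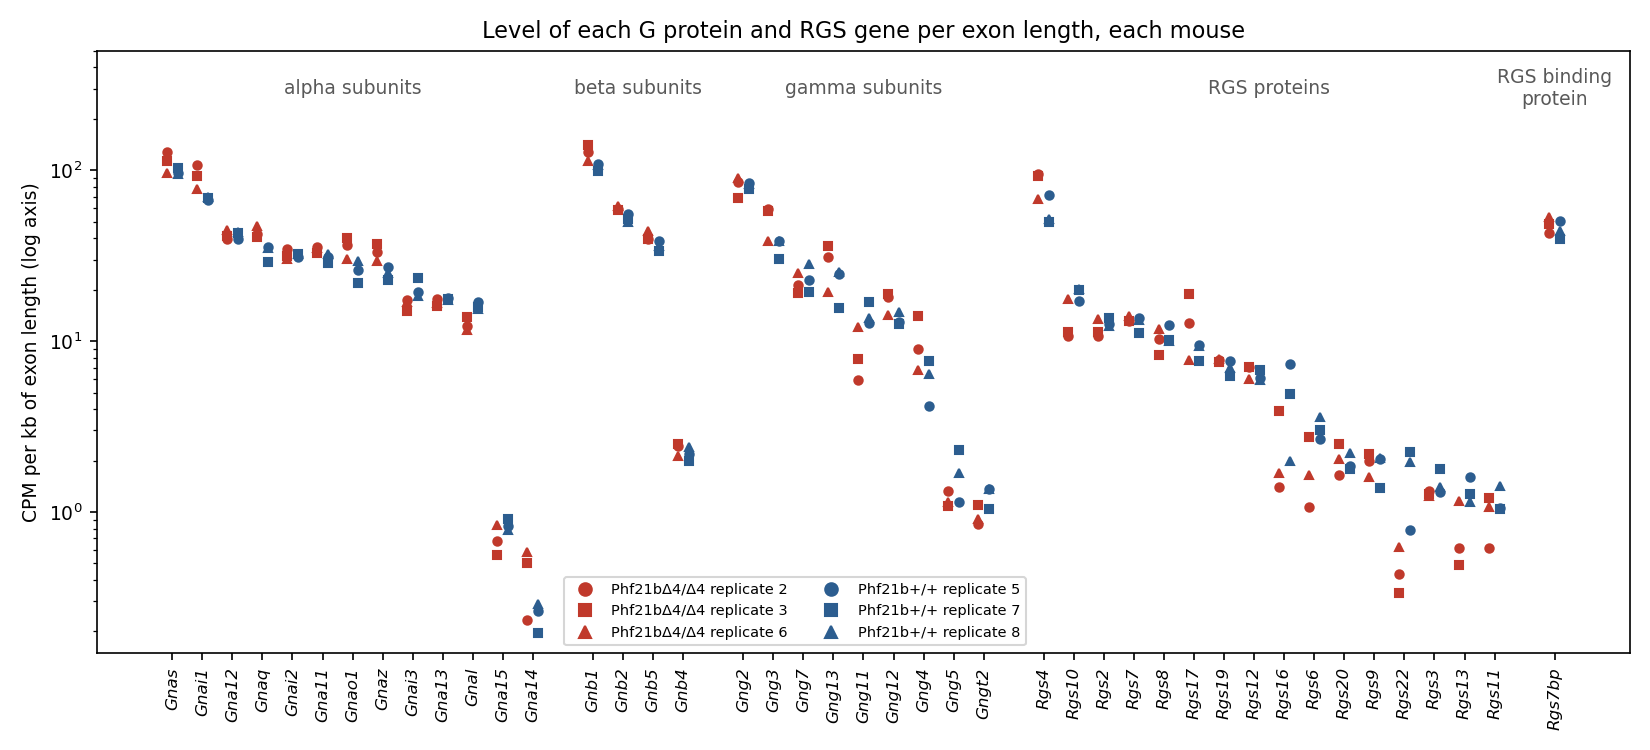
Level of each gene in each mouse as CPM per kb of exon length (log axis), grouped by class, with Phf21bΔ4/Δ4 mice in red and Phf21b+/+ mice in blue. In the Phf21b+/+ mice Gnb1, Gnas, and Gng2 had the highest means and Gna15 and Gna14 the lowest. In the Phf21bΔ4/Δ4 mice Rgs22 lies below Gna15.

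On this scale the α subunits summed to 505, 474, and 437 in Phf21bΔ4/Δ4 mice and to 408, 408, and 415 in Phf21b+/+ mice, and the β subunits to 229, 241, and 221 against 205, 186, and 196. Neither sum overlapped. The γ sum (221 ± 12.1 and 199 ± 15.0) and the RGS sum (173 ± 14.02 and 153 ± 14.8) overlapped between the genotypes. Of the α sum, Gi/o made up 44.4% ± 1.88 in Phf21bΔ4/Δ4 mice and 41.8% ± 0.363 in Phf21b+/+ mice. The Gi/o and the Gq/11 sums did not overlap (210 ± 23.0 and 171 ± 3.32 for Gi/o, 78.9 ± 4.72 and 65.0 ± 5.20 for Gq/11), while the sums of Gs and of Gα12 with Gα13 did. These sums are given as a description, and in them replicate 6 had the lowest α and β value of the Phf21bΔ4/Δ4 mice. The sums rest on the deposited scaling and were not worked out after quantile normalization. For the 5 α genes higher without overlap, quantile normalization gave smaller log2 changes. These were 0.25 (Gnao1), 0.24 (Gnai1), 0.32 (Gnaz), 0.23 (Gnaq), and 0.053 (Gna11). The change of Gna14 rose from 0.73 to 1.28 and that of Gna15 from -0.30 to 0.030. The β values are given above.

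The partners of these proteins were examined in a list of effectors, receptor kinases, arrestins, and accessory proteins, of which 48 of 53 were listed. Of the 48, 1 gene was called, against 1.22% of all listed genes, 33 changes were positive and 15 negative (47.6% of all listed genes were positive), and 15 of the 48 were at an unadjusted p under 0.05, as were 23.6% of all listed genes. The gene called was Gpr179, an orphan receptor that anchors R7 RGS proteins in the retina. Gpr179 was at 0.380, 0.476, and 0.348 CPM in Phf21bΔ4/Δ4 mice and at 1.85, 1.22, and 1.71 CPM in Phf21b+/+ mice (log2 change -1.97, SE 0.35, FDR = 0.089). It reached 1 CPM only in Phf21b+/+ mice, and so was listed only through the genotype in which it was higher. These are low levels, of 8 to 39 reads per mouse, and in the 6 fits that each left out a mouse Gpr179 was called in 1, that without Phf21bΔ4/Δ4 replicate 6. Among the 25 effectors (adenylyl cyclases, phospholipases C-β, Kcnj channels, PI3K subunits, and exchange factors), 20 changes were positive and 0 genes were called. Among 8 listed receptor kinases and arrestins, which turn off active receptors, 5 changes were positive and 0 genes were called, and among 15 accessory proteins 8 changes were positive.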

How the data were processed

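RNA of the hippocampus was sequenced from 3 Phf21bΔ4/Δ4 and 3 Phf21b+/+ mice, grouped by their labels. The authors depleted ribosomal RNA, trimmed reads with Trimmomatic 0.39, mapped them to GRCm38 with STAR 2.7.3a, counted them with featureCounts (Subread 1.6.4), kept genes at 1 CPM or more in at least 2 samples, and deposited log2 CPM scaled by edgeR's effective library sizes. The strand setting is not given in the sources used here. Reads were worked out from the steps between low values (100.0% whole within 0.1 reads) and gave the depths and CPM.

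Differences between genotypes were tested by limma 3.58.1 (R 4.3.3, variance trend, no covariates) on these log2 CPM as the authors deposited them, over 14477 genes with Benjamini-Hochberg adjustment. The thresholds, FDR under 0.1 and fold change above 1.3, are those of the study. Its own test, by edgeR, takes counts and was not run here on the reads worked out above. P-values set the difference between the genotypes against the spread between these mice. The variance of each gene was drawn toward the trend over all genes. An exact permutation test of 3 against 3 mice cannot give p below 0.1 and was not used. The fit was tested on simulated data. Exon lengths and positions are from GENCODE M21, and promoters from RefSeq (GRCm38.p6). Gene locations were matched by symbol, and exon overlaps with other genes were found by position.

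Genes were named in full where called, or where the genotypes did not overlap and the fold change was above 1.3. Other genes of the families are given with their values. The genes and all lists were chosen with earlier results of these data known. Alternatives were other variance priors, mouse weights, filters, pseudocounts, scalings, thresholds, voom on the reads, and leaving out each mouse.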

Additional observations from a re-analysis of the deposited data

How the results depend on the processing

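Of the 43 G protein and RGS genes, 0 were called, and 13 were called with mice weighted by quality, 1 after quantile normalization, and 0 to 12 on leaving out a single mouse (12 without Phf21bΔ4/Δ4 replicate 6, 0 without any other mouse). In the whole table, 176 genes were called, and 3549 with weights, 101 among genes whose log2 CPM averaged 1 or more, 75 with the same prior variance for all genes, 25 at an FDR under 0.05, and 9 to 2830 when each mouse was left out. Of the effectors, receptor kinases, arrestins, and accessory proteins, 1 gene was called, and 19 with weights, 0 with the filter on the mean, after quantile normalization, or at an FDR under 0.05, and 0 to 16 when each mouse was left out. The median log2 change of the 43 genes, 0.079, was -0.0015 with weights, 0.010 after quantile normalization, 0.13 with each mouse centred on its median, and 0.0049 to 0.0999 when each mouse was left out (lowest without Phf21b+/+ replicate 7). The median over all genes was -0.019, 0.019 after quantile normalization, and 0.030 with centring. The log2 change of Phf21b, -0.96, was -1.32 and called with weights, and -1.12 to -0.70 when each mouse was left out (called without Phf21bΔ4/Δ4 replicate 6). The sign of the weighted median turned, as did that of 11 of the 43 genes in at least 1 alternative, none of them at an unadjusted p under 0.05. Genes at that p were picked in the same mice, so their stable sign is no added support. The cause of these differences was not tested. No paired analysis was made, because the litter of each mouse is not given in the sources used here and replicate numbers do not define pairs. With 3 mice of each genotype, the 95% interval ran past 2-fold for 13 of the 43 genes.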
